A study of Mus musculus with 2 samples.

Results

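The 8 genes described here encode the enzymes that make serine and pass its carbon to folate: Phgdh, Psat1, Psph, Shmt1, Shmt2, Mthfd1, Mthfd2 and Mthfd1l. They were chosen by name, with earlier results of the same data known, and all 8 were listed among the 17641 genes of the normal library and among the 15644 of the tumor library. Each library held CD45-/CD31+ cells that were sorted by FACS and sequenced in droplets. The normal library (NECs) came from pooled mammary glands of C57BL/6 mice of 6 to 8 weeks of age, and the tumor library (TECs) came from pooled E0771 tumors, a mouse mammary cancer line that had been implanted orthotopically. The labels used here give no genotype, treatment or replicate for either library, and no strain or age for the tumor library. Some labels of the normal library name TECs, but its title and the series design name normal glands, and it was taken as normal.

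The question was how much of the level in the tumor library came from cancer-like cells and how much from endothelium. A cell was called endothelial when its unique molecular identifiers (UMIs, each of which counts 1 captured transcript) of Cdh5 plus Pecam1 were at least 1 and exceeded those of Rhox5 plus Hmga2 plus Krt8. A cell of the tumor library was called cancer-like when the latter 3 genes gave at least 3 UMIs and were the higher sum. Cells with fewer than 200 genes, with 10% or more of UMIs from mitochondrial genes, or with any transcript of the filter genes Epcam, Ptprc, Cspg4 and Myh11 had been set aside. Of 9047 barcodes in the normal library, 4912 were endothelial (median 2984 UMIs). Of 704 barcodes in the tumor library, 261 were endothelial (median 16989 UMIs) and 167 were cancer-like (median 57294 UMIs). The libraries shared 3 barcodes, none of them among the endothelial cells.

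Genes that the rule did not use went along with both names. Endothelial genes such as Cldn5, a tight junction protein, and Plvap, a protein of fenestrae, were at 833 and 1534 CPM (counts of a gene per 1000000 UMIs of all genes) in tumor endothelial cells. In cancer-like cells they were at 1.26 and 4.18 CPM. The 10 endothelial genes together reached 1.33% of their endothelial level there. Cldn5 and Plvap were the lowest of the 10 by this measure. Eng was the highest, at 6.75% (50.0 CPM), followed by Egfl7 at 1.85% (39.9 CPM). Col3a1, a fibrillar collagen, was at 247 CPM in cancer-like cells and 3.66 CPM in tumor endothelial cells, and Wfdc2, a secreted protease inhibitor of epithelium, was at 192 and 6.24 CPM. Of the other 4 marker genes listed for the cancer-like cells, Acta2 (111 CPM) and Pdgfra (29.9 CPM) were present, Krt18 had 3 UMIs in all and Krt7 had none. Xist, which is transcribed from the inactive X chromosome of female cells, was at 671 CPM in tumor endothelial cells and at 2.82 CPM in cancer-like cells.

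Serine is made from a glycolytic intermediate in a chain of reactions by the products of Phgdh, Psat1 and Psph. The serine hydroxymethyltransferases move a carbon unit from serine to folate, Shmt1 in the cytosol and Shmt2 in mitochondria. Mthfd2 and Mthfd1l then carry it through the mitochondrial arm to formate and Mthfd1 carries it through the cytosolic arm, from where it serves the synthesis of purines and thymidylate. Proliferating and transformed cells are known for a high demand on the pathway, and Mthfd2 for high levels in embryonic and cancer cells and low levels in most adult tissue.

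In the mouse genome (GRCm38, GENCODE M21) Phgdh lies on chromosome 3 (98313170 to 98339990), Psat1 on chromosome 19 (15904678 to 15947337) and Psph on chromosome 5 (129765558 to 129787449). Shmt1 lies on chromosome 11 (60788104 to 60811718) and Shmt2 on chromosome 10 (127517123 to 127522444). Mthfd1 lies on chromosome 12 (76255298 to 76319803), Mthfd2 on chromosome 6 (83305691 to 83325908) and Mthfd1l on chromosome 10 (3973118 to 4167081). Mthfd1 and Mthfd1l are on the plus strand and the other 6 on the minus strand. Psph overlaps the protein-coding gene Cct6a, Shmt1 overlaps Smcr8 and Shmt2 overlaps Ndufa4l2. Reads from a stretch shared by such a pair may be hard to assign to a single gene. Whether counting used strand is not given in the sources used here.

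The 250 bases before a RefSeq start of Phgdh, Psat1 and Mthfd2 are shown because these genes carried the main differences below: Phgdh had the largest ratio of cancer-like over endothelial cells, Psat1 was the serine synthesis gene with the largest difference between mitotic-like and other tumor endothelial cells, and Mthfd2 had the largest ratio of tumor over normal endothelium. The sequences are from RefSeq (GRCm38.p6), on the minus strand, 5′ to 3′, at chr3:98339970-98340219, chr19:15925060-15925309 and chr6:83317605-83317854. The RefSeq starts lie inside the GENCODE gene extents given above, by 21 bases for Phgdh, 22278 for Psat1 and 8304 for Mthfd2, since GENCODE lists transcripts that start farther upstream. Of the GENCODE transcripts, 1 of 4 for Phgdh, 1 of 7 for Psat1 and 2 of 7 for Mthfd2 start within 100 bases of these RefSeq starts, and the Phgdh and Mthfd2 windows overlap exons of these genes. Capitals mark CCAAT boxes on either strand (CCAAT or ATTGG), the motif of the factor NF-Y.
Phgdh: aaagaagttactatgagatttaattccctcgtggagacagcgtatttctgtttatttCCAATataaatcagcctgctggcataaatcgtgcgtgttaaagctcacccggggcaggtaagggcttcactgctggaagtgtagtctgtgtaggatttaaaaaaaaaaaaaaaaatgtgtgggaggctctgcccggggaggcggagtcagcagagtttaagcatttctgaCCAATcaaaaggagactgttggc
Psat1: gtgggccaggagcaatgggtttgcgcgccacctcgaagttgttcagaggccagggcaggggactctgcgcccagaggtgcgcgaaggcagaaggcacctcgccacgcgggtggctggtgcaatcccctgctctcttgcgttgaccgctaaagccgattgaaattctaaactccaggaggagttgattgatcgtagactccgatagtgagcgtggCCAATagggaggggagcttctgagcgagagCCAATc
Mthfd2: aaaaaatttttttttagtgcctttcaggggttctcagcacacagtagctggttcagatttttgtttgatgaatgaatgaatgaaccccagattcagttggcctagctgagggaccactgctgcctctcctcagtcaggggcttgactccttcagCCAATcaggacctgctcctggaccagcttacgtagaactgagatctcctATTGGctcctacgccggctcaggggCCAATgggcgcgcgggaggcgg
The Phgdh and Psat1 windows each held 2 CCAAT boxes and the Mthfd2 window held 3. All 8 genes had an entry, with 9 windows in all because Psat1 has 2 starts, and 6 of the 9 windows held a box, against 33.8% of the 32851 windows of this length in the table. Shmt2, Mthfd1l and the other Psat1 start had none. TGATGNAA (other strand TTNCATCA), the C/EBP-ATF response element through which ATF4 acts, was in none of the 9 windows and in 3.45% of all windows. CACGTG, an E-box bound by Myc among others, was in none of the 9 and in 6.02% of all windows. The CCAAT letters were chosen after the sequences had been seen, and a match is a description of letters and not of binding.

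All 8 genes were lowest in normal endothelial cells, intermediate in tumor endothelial cells and highest in cancer-like cells. Their sum was 48.9 CPM (95% interval 45.6 to 52.3) in normal endothelium, 164 CPM (153 to 176) in tumor endothelium and 859 CPM (841 to 877) in cancer-like cells. Each group was 1 library, whose cells do not replicate it, and no difference was tested. Intervals here and below cover counting error only.

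**Figure D1:**
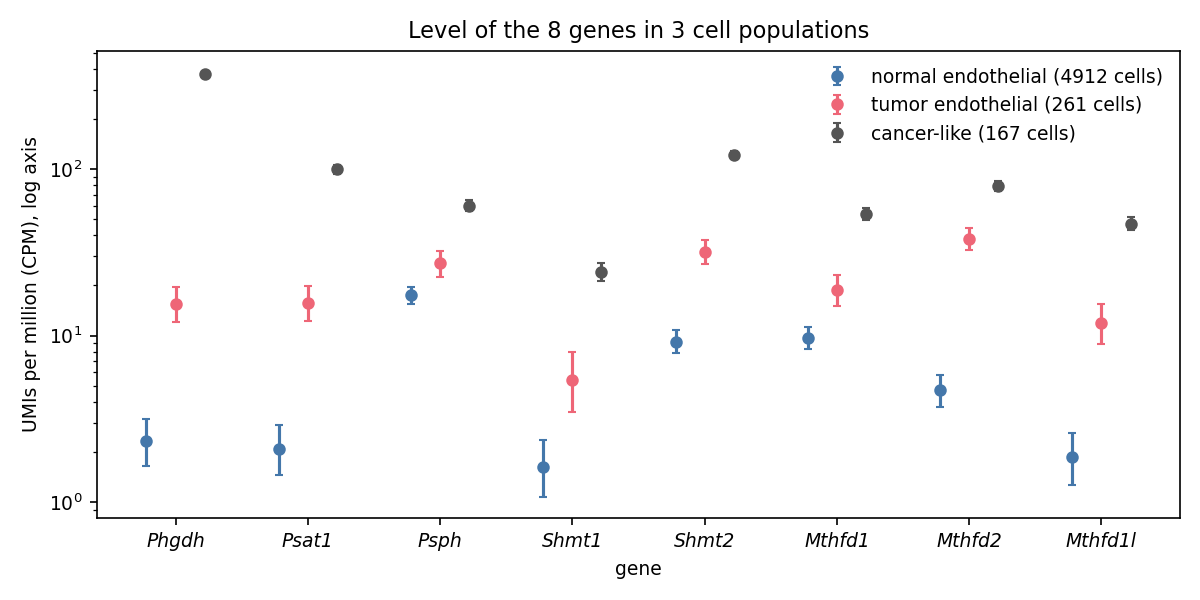
Level of each gene, in CPM on a log axis, in 4912 normal endothelial, 261 tumor endothelial and 167 cancer-like cells, with 95% Poisson intervals. For each of the 8 genes the order is normal endothelium, tumor endothelium, cancer-like cells, and the cancer-like point of Phgdh, at 372 CPM, is the highest on the plot.

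Phgdh encodes the first and committed enzyme of serine synthesis. Its level was 2.31 CPM (1.65 to 3.15) in normal endothelium, 15.5 CPM (12.1 to 19.5) in tumor endothelium and 372 CPM (360 to 384) in cancer-like cells. The step from tumor endothelium to cancer-like cells was 24.0-fold and the step from normal to tumor endothelium 6.70-fold. Without removal by the filter genes these were 24.8-fold and 2.87-fold, and when endothelial cells needed 3 or more UMIs of Cdh5 plus Pecam1 and none of Rhox5, Hmga2 and Krt8 they were 44.8-fold and 3.82-fold. Psat1, the aminotransferase of the next step, was at 2.08 CPM (1.46 to 2.88), 15.7 CPM (12.3 to 19.8) and 99.7 CPM (93.7 to 106). Psph, the phosphatase that releases serine, was at 17.4, 27.1 and 60.5 CPM. It varied least of the 3 serine synthesis genes, with 1.56-fold between the endothelial populations and 2.23-fold between cancer-like cells and tumor endothelium.

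Mthfd2, a mitochondrial dehydrogenase and cyclohydrolase, was at 4.69 CPM (3.72 to 5.82) in normal endothelium, 38.1 CPM (32.7 to 44.1) in tumor endothelium and 79.3 CPM (74.0 to 85.0) in cancer-like cells. Here the order of the steps was the opposite of that of Phgdh, with 8.13-fold (6.22 to 10.7) between the endothelial populations and 2.08-fold (1.77 to 2.46) from tumor endothelium to cancer-like cells. Without cells that held UMIs of 3 or more mitotic marker genes, which left 18 cancer-like cells, these were 8.57-fold and 3.88-fold. The same removal raised the step from tumor endothelium to cancer-like cells for other genes too. On the log2 scale it went from 2.67 to 4.45 for Psat1, 1.16 to 2.11 for Psph and 1.99 to 2.94 for Mthfd1l. Mthfd1l, the mitochondrial synthetase that yields formate, was at 1.85, 11.8 and 47.0 CPM, and Shmt2 at 9.20, 31.9 and 122 CPM. In the cytosolic arm, Mthfd1 was at 9.72, 18.7 and 53.8 CPM and Shmt1 at 1.62, 5.38 and 24.1 CPM.

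In the whole tumor library the levels were mostly those of cells other than endothelium. The tumor library held 12484 UMIs of the 8 genes. Cancer-like cells gave 70.9% of them (70.0 to 71.6) and tumor endothelial cells 6.11% (5.70 to 6.55). When cancer-like cells needed 10 or more UMIs of their 3 rule genes and none of Cdh5 and Pecam1, which left 94 of them, they gave 40.2%. The populations of the main rule held 54.3% and 24.5% of all UMIs of the library. Another 14.9% of the UMIs of the 8 genes came from 28 cells removed for a UMI of a filter gene, 7.78% from barcodes that failed the limits on genes or mitochondrial UMIs and 0.376% from unassigned cells. Among kept cells alone, cancer-like cells gave 91.6% and endothelium 7.90%.

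**Figure D2:**
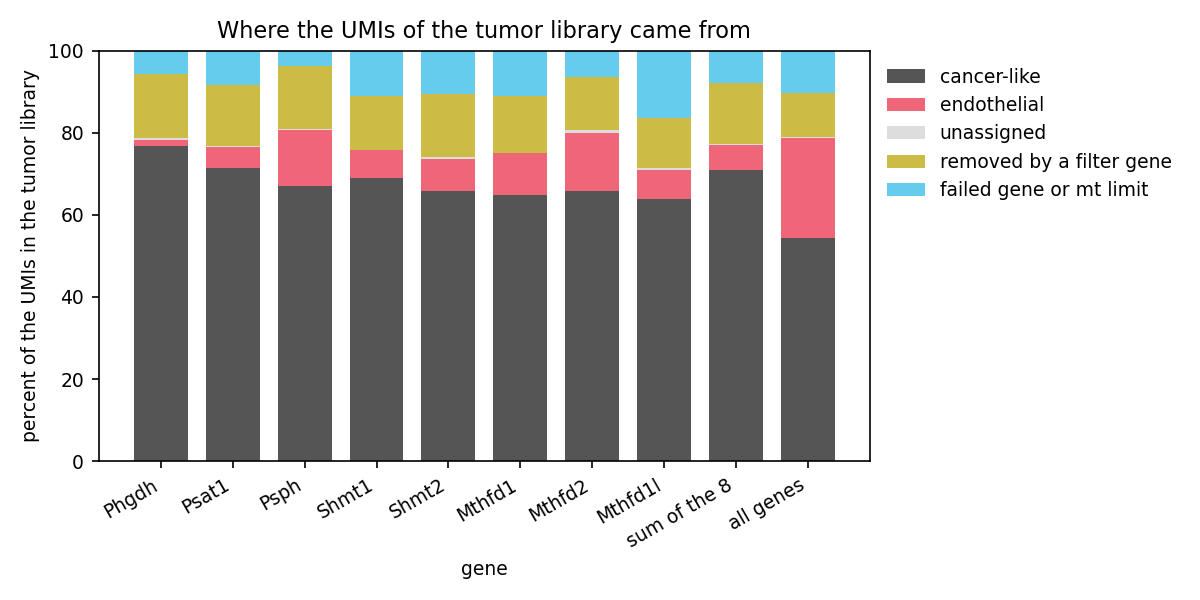
Stacked bars of the percent of UMIs in the tumor library, for each gene, the sum of the 8 and all genes, by the class of the barcode. The endothelial part of Phgdh is 1.44%, that of Mthfd2 is 14.3%, and that of all genes is 24.5%.

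The share from endothelium was lowest for Phgdh, at 1.44% (1.13 to 1.82), with 72 of 4986 UMIs, and highest for Mthfd2, at 14.3% (12.4 to 16.3), with 177 of 1242 UMIs. Psph (13.6%) and Mthfd1 (10.2%) followed Mthfd2, with intervals that overlapped that of Mthfd2. The shares of Shmt2 (7.73%), Mthfd1l (7.25%), Shmt1 (6.94%) and Psat1 (5.08%) lay between those of Mthfd1 and Phgdh. By role, endothelium gave 3.69% of the serine synthesis UMIs, 9.70% of those of the mitochondrial arm (Shmt2, Mthfd2, Mthfd1l) and 9.22% of those of the cytosolic arm (Shmt1, Mthfd1). All 8 shares were below the 24.5% of all UMIs that endothelium held.

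The choice of cells set the size of the difference between tumor and normal. Phgdh was 85.2-fold higher in the tumor library when all kept cells were summed, with 3921 UMIs against 55, and 6.70-fold higher (4.49 to 10.1) when endothelial cells alone were compared. With every barcode summed it was 10.2-fold higher. Only 40 of the 1054 Phgdh UMIs of the normal library were in endothelial cells, and the 1106 cells of that library removed for Epcam alone, a surface protein of epithelium, held Phgdh at 55.4 CPM. The sum of the 8 was 12.8-fold higher over kept cells and 3.36-fold higher (3.04 to 3.71) over endothelial cells. For Mthfd2 the choice mattered less, with 14.3-fold over kept cells and 8.13-fold over endothelial cells.

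Among endothelial cells, 6 of the 8 genes were at least 2-fold higher in the tumor, where 11.2% of the 13055 genes with 10 or more UMIs were. The members had been picked with this contrast known, so nothing is read from the count. Their median log2 ratio was 2.23, beside -0.09 over all genes. On the log2 scale, Mthfd2 was higher by 3.02 (2.64 to 3.42), Psat1 by 2.92 (2.32 to 3.53), Phgdh by 2.74 (2.17 to 3.34) and Mthfd1l by 2.68 (2.02 to 3.35). Shmt2 was higher by 1.79 and Shmt1 by 1.73. Mthfd1, at 0.95, and Psph, at 0.64, were the 2 genes under 2-fold. With each cell thinned to 1900 UMIs in a random draw, Shmt2 was higher by 1.05, Mthfd1l by 3.86 and Shmt1 by 3.15. In another draw at that depth, Shmt1 was in 1 of 239 tumor and 11 of 3824 normal endothelial cells. Without cycling cells, Shmt1 was higher by 0.65 and Psat1 by 1.77. In cancer-like over tumor endothelial cells all 8 were past 2-fold, where 19.1% of 11990 genes were. As a mean over cells, Mthfd2 was under 2-fold in that comparison, at 0.86 on the log2 scale.

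The mitochondrial arm took a larger part of the one-carbon UMIs in tumor than in normal endothelium. Its 3 genes gave 58.1% (53.5 to 62.6) of the UMIs of both arms in normal endothelium, 77.2% (73.3 to 80.9) in tumor endothelium and 76.2% (74.7 to 77.6) in cancer-like cells. The serine hydroxymethyltransferases showed no such shift. Shmt2 gave 85.0%, 85.5% and 83.6% of the UMIs of the Shmt1 and Shmt2 pair, with overlapping intervals, so the shift of the arms was in Mthfd2 and Mthfd1l against Mthfd1. Outside the mitotic-like clusters the mitochondrial arm gave 57.5% (52.6 to 62.3) in normal and 79.1% (73.4 to 84.1) in tumor endothelium. Within them it gave 62.5% (48.5 to 75.1) and 75.5% (69.7 to 80.7), with overlapping intervals.

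Transcripts of cancer cells can reach other droplets as free RNA, so the endothelial level of each gene was set against its cancer-like level. The marker genes that were not used in the cell rule gave the scale. Col3a1 in tumor endothelium reached 1.48% of its cancer-like level, Wfdc2 3.25%, Acta2 4.08% and Pdgfra 5.04%, and the 6 marker genes together, 4 of which had a UMI in tumor endothelium, summed to 15.9 CPM, or 2.74% (2.15 to 3.45). Normal endothelium, from glands without an implanted tumor, held the same 4 genes at higher levels than tumor endothelium, among them Acta2 at 30.7 CPM and Wfdc2 at 26.3 CPM, beside Krt8 at 35.1 CPM and the pericyte gene Rgs5 at 106 CPM. Normal endothelium also held the salivary genes Bpifa2 at 1038 CPM, in 82.6% of cells, and Smr3a at 659 CPM. In tumor endothelium Phgdh, at 4.17% (3.25 to 5.26) of its cancer-like level, lay within the range of the 4 marker genes. The other 7 lay above it, from 15.8% for Psat1 through 22.3% for Shmt1, 25.2% for Mthfd1l, 26.0% for Shmt2, 34.8% for Mthfd1 and 44.8% for Psph to 48.0% (40.6 to 56.6) for Mthfd2. Another scale gave a wider range. The 13 genes with at least 50 CPM in cancer-like cells and under 0.5 CPM in normal endothelium, a rule set after the data had been seen, had a median of 3.99%, quartiles of 1.26% and 6.88% and a highest value of 29.3%. The part of free RNA in any of these levels was not tested.

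The rule genes were low in tumor endothelium by construction. Rhox5 was at 4.09 CPM there and at 738 CPM in cancer-like cells, and 19 of the 261 endothelial cells held a UMI of Rhox5, Hmga2 or Krt8. Those 19 cells held the 8 genes at 187 CPM (149 to 233), close to the 164 CPM of all tumor endothelial cells. With the stricter rule of 3 or more UMIs of Cdh5 plus Pecam1 and none of the 3 cancer-like genes, the sum was 2.85-fold higher in tumor than in normal endothelium. The 24 tumor endothelial cells nearest to the limit, with 1 or 2 UMIs of Cdh5 plus Pecam1, were shallow (median 2156 UMIs) and held the 8 genes at 714 CPM (569 to 885). That is nearer to the 859 CPM of cancer-like cells than to the other endothelial cells. The 618 normal endothelial cells at the same limit held 40.6 CPM. On the other side, the 16 cancer-like cells with 3 to 5 UMIs of the rule genes held 679 CPM, and the 17 unassigned cells with 1 or 2 held 1076 CPM.

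Endothelial cells of each library were clustered without the 8 genes and the pathway genes among the variable genes. The tumor endothelium formed 4 clusters. Cluster 2 (59 cells, median 29208 UMIs) was mitotic-like, led by Pimreg and Birc5, with 16 of 16 mitotic markers raised. Cluster 0 (82 cells, led by Tbxa2r) had 5 arterial markers raised but none among its 10 leading genes, and cluster 1 (64 cells, led by the tip marker Pgf) had 5 tip and 5 interferon markers raised, so both stayed unnamed. Cluster 3 (56 cells, led by Gm26917) was shallow, with a median of 2194 UMIs and no marker list raised, and stayed unnamed. The normal endothelium formed 16 clusters, among them cluster 14 (86 cells, median 6115 UMIs), which was mitotic-like with 14 mitotic markers raised.

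**Figure D3:**
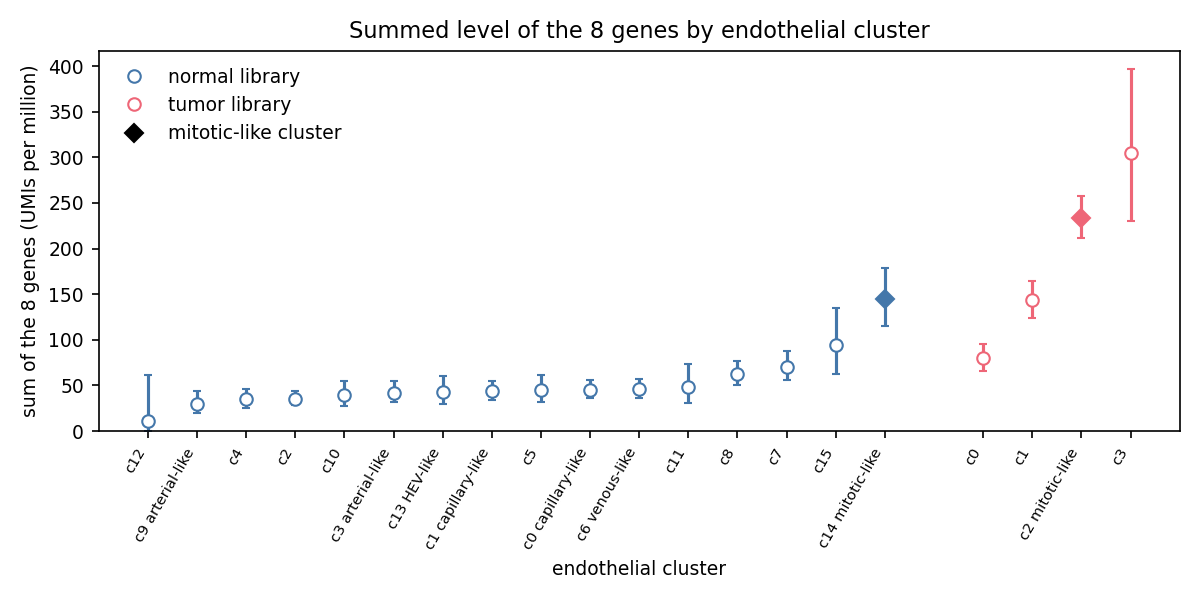
Sum of the 8 genes, in CPM with 95% Poisson intervals, in the 16 normal and 4 tumor endothelial clusters, ordered by level within each library. Filled diamonds are the mitotic-like clusters, at 145 CPM in the normal and 234 CPM in the tumor library, and the tumor cluster at the right, at 305 CPM, is the shallow one.

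In the normal library the mitotic-like cluster had the highest sum, at 145 CPM (115 to 179). The other 15 clusters ran from 11.1 to 94.1 CPM with a median of 43.6 CPM, and neither the arterial-like (41.9 and 30.1 CPM), venous-like (45.9 CPM), capillary-like (45.6 and 43.6 CPM) nor HEV-like (42.8 CPM) clusters stood apart from that median. The 94.1 CPM were in cluster 15 (45 cells), which was led by Fst, Col1a2 and Col1a1 and had 6 pericyte markers raised, and it stayed unnamed because its 10 leading genes held 2 of these and 3 markers of other lists. That cluster held 10 of the 40 endothelial Phgdh UMIs, at 32.4 CPM, while its Psat1 had no UMI.

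In the tumor library the sum increased from 79.7 CPM in cluster 0 and 143 CPM in cluster 1 to 234 CPM among mitotic-like cells and 305 CPM (230 to 397) among the shallow cells. Phgdh was at 1.44 CPM (0.174 to 5.19) in cluster 0, from 2 UMIs, with an interval that held the 2.31 CPM of normal endothelium, at 11.9 CPM in cluster 1, at 25.5 CPM among mitotic-like cells and at 55.4 CPM among the shallow cells. Mthfd2 was at 12.9 CPM (7.66 to 20.4), 49.0 CPM (37.9 to 62.3), 44.0 CPM (34.7 to 55.1) and 94.3 CPM (54.9 to 151) in the same order. In the deep clusters, Mthfd2 was thus as high in the Pgf-led cluster as in the mitotic-like one, and Psat1 was not, at 5.20 against 31.9 CPM. The summed marker genes of cancer-like cells moved in part with Phgdh, at 12.2, 10.4, 21.4 and 33.3 CPM, and their part in the levels was not tested. The shallow cluster held only 3.88% of the tumor endothelial UMIs, and without it the sum was 3.24-fold higher in tumor than in normal endothelium.

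Mitotic-like cells held 52.9% (49.3 to 56.5) of the endothelial UMIs of the 8 genes in the tumor, with 37.1% of all endothelial UMIs. Against the other tumor endothelial cells, 5 of the 8 genes were at least 2-fold higher, where 7.29% of 10520 genes were, and their median log2 ratio was 1.11 beside -0.04 for all genes. Psat1 was at 31.9 CPM (24.0 to 41.5) in mitotic-like and 6.16 CPM (3.65 to 9.74) in other cells, a 5.17-fold difference (2.99 to 9.35). Shmt1 was at 11.6 and 1.71 CPM, 6.77-fold apart, but on 20 and 5 UMIs. Phgdh (2.66-fold), Shmt2 (2.28-fold) and Mthfd1l (2.03-fold) were also past 2-fold. Mthfd1 was 1.58-fold higher, and the intervals of Mthfd2 (1.27-fold, 0.933 to 1.73) and Psph (1.19-fold, 0.817 to 1.72) held no difference. Wfdc2, of the cancer-like cells, was 3.76-fold higher in mitotic-like cells as well, on 20 and 9 UMIs, of which the 20 lay in 3 cells, and its part was not tested. When the CPM of single cells were averaged, Phgdh was 1.01-fold and Mthfd1 0.924-fold, and without the shallow cluster Psat1 was 7.94-fold higher. With each cell thinned to 1900 UMIs in a random draw, Mthfd1l was 0.610-fold, Mthfd2 0.508-fold, Psph 0.678-fold and Phgdh 1.02-fold. These values rest on few UMIs, and the intervals of all 8 genes held equal levels at that depth. In another draw Mthfd2 was in 8.47% of mitotic-like and 5.56% of other cells and Phgdh in 1.69% and 0.556%. Psph (3.39% and 5.56%) and Mthfd1l (1.69% and 2.78%) were in a smaller share of mitotic-like cells there.

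**Figure D4:**
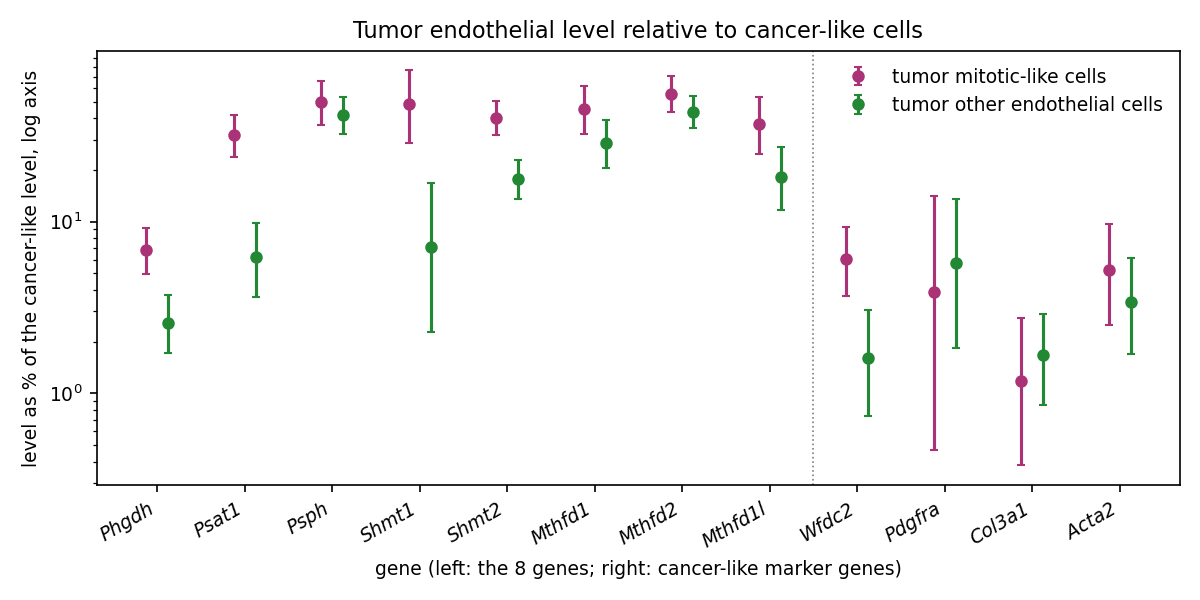
Level in mitotic-like and other tumor endothelial cells as a percent of the level in cancer-like cells, on a log axis, for the 8 genes and for 4 marker genes of cancer-like cells, with 95% intervals. Phgdh lies above the 4 marker genes in mitotic-like cells, at 6.85%, and among them in the other cells, at 2.58%, and Mthfd2, at 55.5% and 43.6%, is the highest.

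Outside the mitotic-like cells, Phgdh stood at 2.58% (1.71 to 3.73) of its cancer-like level, Psat1 at 6.18% (3.65 to 9.82), Shmt1 at 7.11% (2.29 to 16.8), Shmt2 at 17.6% (13.46 to 22.7) and Mthfd1l at 18.2% (11.7 to 27.2). These 5 intervals overlapped that of Pdgfra, the highest of the 4 marker genes, at 5.73% (1.85 to 13.51). Pdgfra rests on 5 UMIs. Wfdc2 was at 1.60% (0.732 to 3.05), Col3a1 at 1.66% (0.858 to 2.91), Acta2 at 3.40% (1.69 to 6.11) and the 6 marker genes together at 2.18% (1.54 to 3.01), and the intervals of Shmt2 and Mthfd1l lay above all of these and that of Psat1 above all but Acta2. The intervals of Mthfd1 (28.6%), Psph (41.9%) and Mthfd2 (43.6%) lay above those of all 4 marker genes. In mitotic-like cells Psat1 was at 32.0% (23.9 to 41.9) and Shmt1 at 48.1% (28.9 to 75.9), while Wfdc2 was at 6.03% (3.67 to 9.33) and Phgdh at 6.85% (4.97 to 9.22), with overlapping intervals.

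The normal library showed which of these genes were higher in mitotic-like cells of glands without an implanted tumor. Normal mitotic-like cells were deeper than the others and held only 580441 UMIs, so the intervals are wide. At least 2-fold higher were 5 of the 8 genes, where 10.9% of 12740 genes were. Psat1 was at 17.2 CPM against 1.56 CPM, 11.1-fold apart (4.76 to 23.7), and Mthfd2 was at 37.9 CPM against 3.53 CPM, 10.7-fold apart (6.26 to 17.8). Mthfd1 (3.67-fold), Shmt1 (2.21-fold) and Shmt2 (2.14-fold) were next. Phgdh and Mthfd1l, with 2 UMIs each in the mitotic-like cells, had intervals that held no difference, and Shmt1, past 2-fold on 2 UMIs, did too. With each cell thinned to 1900 UMIs, Psat1 and Shmt1 were in 0 of 80 normal mitotic-like cells. They were in 14 and 11 of 3824 normal endothelial cells. Mthfd1 was in 5 of the 80 and 62 of the 3824, and Shmt2 in 3 and 68.

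When mitotic-like cells were compared with mitotic-like cells and other cells with other cells, Mthfd2 gave the clearest contrast. Its level in other endothelial cells was 34.6 CPM (28.2 to 42.0) in the tumor and 3.53 CPM (2.69 to 4.56) in the normal library, 9.79-fold apart (7.03 to 13.7). In mitotic-like cells it was 44.0 CPM in the tumor and 37.9 CPM in the normal library, and the interval of the ratio (1.16-fold, 0.715 to 1.96) held no difference. The intervals of these ratios did not overlap, and the difference between them was not tested. The other tumor endothelial cells were not alike, since cluster 0, with 82 of the 202 cells, held Mthfd2 at 12.9 CPM (7.66 to 20.4) and cluster 1 at 49.0 CPM.

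**Figure D5:**
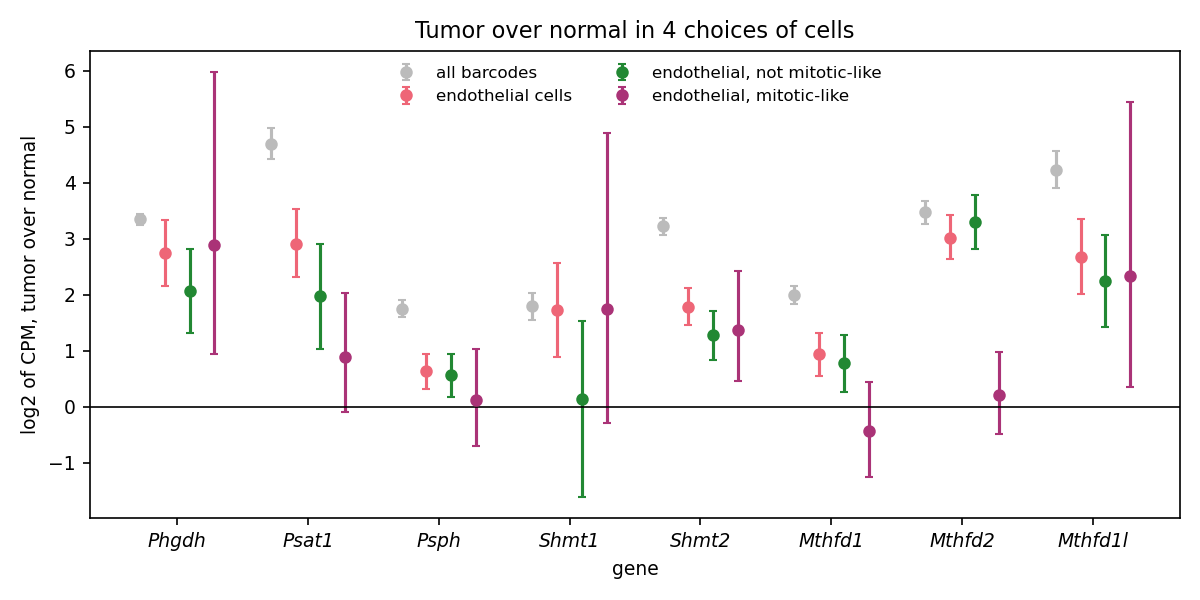
Log2 of the level in tumor over normal for each gene, with 95% intervals, over all barcodes, all endothelial cells, endothelial cells outside the mitotic-like clusters and mitotic-like endothelial cells. Mthfd2 is at 3.29 outside the mitotic-like clusters and at 0.22 within them, and the interval of Shmt1 outside them spans 0.

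Of the 8 genes, 5 were at least 2-fold higher in tumor than in normal endothelium outside the mitotic-like clusters, where 9.89% of 12867 genes were. They were Mthfd2, Mthfd1l (4.77-fold), Phgdh (4.21-fold), Psat1 (3.96-fold) and Shmt2 (2.43-fold). Mthfd1 was 1.73-fold and Psph 1.49-fold higher, and Shmt1, at 1.10-fold (0.33 to 2.91), was not distinguishable from equal at this depth. Within the mitotic-like cells 4 of 8 genes were past 2-fold, where 10.6% of 9768 genes were, but only the intervals of Phgdh, Shmt2 and Mthfd1l excluded equal levels. Phgdh (7.40-fold, 1.93 to 63.0) and Mthfd1l (5.04-fold, 1.28 to 43.6) rest on 2 normal UMIs each. Shmt2 was 2.60-fold higher (1.38 to 5.40), on 11 normal UMIs.

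Phgdh was detected in each of the 140 cancer-like cells with at least 10000 UMIs, at 81.6 CPM in the lowest, 328 CPM in the median and 1215 CPM in the highest cell. The other 7 genes were at 0 in some of these cells, from 4.29% of them for Psat1 to 35.7% for Shmt1. The sum of the 8 ran from 91.1 through 795 to 2025 CPM. In 54 mitotic-like tumor endothelial cells of that depth the median sum was 178 CPM and the highest 1350 CPM. In 125 other tumor endothelial cells it was 75.6 CPM in the median cell and 1659 CPM in the highest, and 28.0% of them held none of the 8. Phgdh was at 0 in 81.5% of these mitotic-like and 92.0% of these other endothelial cells, while single cells reached 536 and 481 CPM, above the median of the cancer-like cells. Mthfd2 was at 0 in 29.6% and 72.8%, and its highest single cells were at 279 and 665 CPM.

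With every cell of the tumor library thinned to 10000 UMIs, the median cancer-like cell held 4 of the 8 genes and the median cell of either endothelial population held 1. Cells with none of the 8 were 22.2% of mitotic-like and 44.0% of other endothelial cells, and 0 of 140 cancer-like cells. Phgdh was detected in 133 of 140 cancer-like cells, 9.26% of mitotic-like and 6.40% of other endothelial cells at that depth, which left out 27, 5 and 77 shallower cells in that order, and in 92.8%, 18.6% and 6.93% without thinning. Mthfd2 was detected in 77 of 140 cancer-like cells, 31.5% and 18.4% of the thinned cells and in 79.6%, 67.8% and 22.8% of all cells. Of the marker genes of cancer-like cells, Col3a1 was in 5.08% of mitotic-like and 5.45% of other endothelial cells without thinning, at median depths of 29208 and 13516 UMIs. Acta2 was in 8.47% and 3.96%, Wfdc2 in 5.08% and 2.97% and Pdgfra in 1.69% and 1.98%.

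Genes around the pathway were read from fixed lists, on the ratio of tumor over normal endothelium, with the all-gene median at -0.09 on the log2 scale and 11.2% of genes at least 2-fold higher and 26% at least 2-fold lower. Of 11 folate genes with enough UMIs, 3 were at least 2-fold higher and 2 lower, with a median of -0.01. Tyms, which makes thymidylate, was at 30.3 CPM in normal and 145 CPM in tumor endothelium. It was also higher in mitotic-like than in other tumor endothelial cells, by 2.14 on the log2 scale. Ggh, a lysosomal folate hydrolase, was at 82.2 and 42.8 CPM, and Slc25a32, the mitochondrial folate carrier, at 22.7 and 12.5 CPM. Mthfd2l, the paralog of Mthfd2 known from adult tissue, ran the other way from Mthfd2, at 23.8 CPM in normal and 8.61 CPM in tumor endothelium.

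Purine synthesis genes, which use formyl folate, had 1 of 6 past 2-fold higher and none past 2-fold lower (median 0.79). Atic was at 16.8 CPM in normal and 49.9 CPM in tumor endothelium, Adsl at 21.99 and 40.2 CPM, Gart at 23.5 and 38.3 CPM and Paics at 64.7 and 71.2 CPM. Of the 4 glycine cleavage genes, Gcsh, the lipoyl carrier, was higher in tumor endothelium (20.9 and 89.3 CPM), Dld, a lipoamide dehydrogenase, was at 62.7 and 74.7 CPM, and Amt and Gldc were counted as past 2-fold lower on few UMIs. Amt had 2 UMIs in tumor and 17 in normal endothelium, with an interval that held equal levels. Gldc had none in tumor endothelium, which allows up to 0.646 CPM, and 13 in normal endothelium (0.752 CPM), so the counts do not bound its ratio past 2-fold. In the methionine cycle 1 of 5 genes was past 2-fold higher and 1 lower (median -0.29). Mat2a, which makes S-adenosylmethionine, was at 286 CPM in normal and 108 CPM in tumor endothelium, Mat2b at 74.2 and 60.7 CPM, Mtr at 12.2 and 8.18 CPM and Mtrr at 5.09 and 5.17 CPM.

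Of 7 transporters of serine and other neutral amino acids, 2 were past 2-fold higher and none lower (median 0.67). The largest ratio of the list was that of Slc38a1, a neutral amino acid carrier, at 1.56 CPM (1.03 to 2.27) in normal and 16.6 CPM (13.1 to 20.7) in tumor endothelium, 10.6-fold apart (6.76 to 17.1). Slc38a2 was at 358 CPM in normal and 306 CPM in tumor endothelium, Slc1a5 at 30.1 and 66.7 CPM, Sfxn1, the mitochondrial serine carrier, at 23.0 and 45.4 CPM and Sfxn3 at 26.6 and 22.2 CPM. The list of amino acid response genes under ATF4, a factor known to act on Phgdh, Psat1 and Mthfd2, had 2 of 15 past 2-fold higher and 1 past 2-fold lower, with a median of -0.06. Atf4 itself was at 363 CPM in normal and 211 CPM in tumor endothelium, Slc3a2 at 327 and 169 CPM, Sars at 62.4 and 126 CPM and Wars at 95.4 and 104 CPM. The median of this list lay near that of all genes in tumor over normal endothelium and at 0.84 in cancer-like over tumor endothelial cells, where the all-gene median was 0.03.

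The genes whose levels ran most like the sum of the 8 were found over 21 points, the 16 normal and 4 tumor endothelial clusters and the cancer-like cells, on log2(CPM + 10) among 6330 genes. The points differ in depth and share libraries, so the likeness is given as a description. Snrpd2, a spliceosome protein, was first (Pearson r = 0.96), followed by C1qbp, Tcp1, Set, Nhp2, Pgam1, Mif, Ola1 and Tpi1 (0.96 to 0.94). Without the cancer-like point these coefficients were between 0.90 and 0.94.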

How the data were processed

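The authors aligned the reads of both droplet libraries and deposited whole-number UMI counts per gene and barcode, without normalization. The submitters' processing notes name Cell Ranger, Seurat and the build mm10, and the Cell Ranger version and the annotation are not given in the sources used here. The counts summed to 40914092 UMIs in the normal and 18980858 in the tumor library. The genes and lists described here were chosen with earlier results of these data known.

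Cells were sorted into classes by the rule given above, and UMIs were summed per class and divided by the UMIs of all genes (CPM). With 1 library per group no test was made. Levels have exact Poisson intervals, ratios exact conditional binomial intervals and shares Clopper-Pearson intervals, all at 95% (Python 3.11.15, scipy 1.17.1). Ratio intervals held the true fold for 98% of 200 changed genes among 14976 in counts simulated for tumor over normal endothelium. The counts were drawn from the Poisson model that the intervals assume, so this checks the code and not the spread between cells. The changed genes were drawn from better-counted genes, which left out genes as scarce as Phgdh, Psat1, Shmt1 and Mthfd1l. A share or level of 0 allows up to 3 UMIs. Background shares cover genes with 10 or more UMIs in both groups together, and called means at least 2-fold.

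Endothelial cells were clustered per library in Seurat 5.3.0 (R 4.3.3) with LogNormalize, 4000 variable genes, 20 principal components, 20 neighbors and a resolution of 0.8, after 20 (normal) and 35 (tumor) genes of the lists here had been dropped from the variable genes. A cluster took the name of the marker list with the most genes raised 2-fold or more, where these were 3 or more and more than in any other list, and where at least 1 was among its 10 leading genes and markers of other lists there were not more. Scrublet in scanpy 1.11.5 called 0 of 6924 and 0 of 484 cells doublets, which is too few to count as working, so doublets were not removed. Named genes are the 8 genes, the cell rule and marker genes, up to 4 genes per pathway list with the most UMIs in tumor endothelium and the 10 most alike genes, of which some are not reported here. Mthfd2l, Slc38a1, Amt, Gldc and Xist were named after their values had been seen.

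Alternatives covered the limits on mitochondrial UMIs and genes, the filter genes, stricter cell rules, the denominator, centring, the mean over cells, thinning to 1900 UMIs per cell, cycling cells, doublet scores and, after the data had been seen, the shallow tumor cluster.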

Additional observations from a re-analysis of the deposited data

Results flagged for a closer look

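The 28 cells of the tumor library that the filter genes (Epcam, Ptprc, Cspg4, Myh11) had removed held the 8 genes at 915 CPM (874 to 958), a signal in cells that this removal alone kept out of the classes. Without it, 190 cells in place of 167 met the cancer-like rule and 266 in place of 261 the endothelial rule. They were deep, with a median of 78231.5 UMIs, and their level was nearer to the 859 CPM of cancer-like cells than to the 164 CPM of tumor endothelium. Phgdh was at 388 CPM in them and Mthfd2 at 79.3 CPM.

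The 1724 cells removed from the normal library by the same genes held Phgdh at 50.0 CPM (46.8 to 53.3), against 2.31 CPM in normal endothelium. By the gene that removed them, Phgdh was at 55.4 CPM in cells with Epcam alone, 41.8 CPM with Ptprc alone (47 cells), 23.2 CPM with Cspg4 alone (74 cells) and 5.62 CPM with Myh11 alone (243 cells). Psat1 was at 3.60 CPM (2.78 to 4.59) in the removed cells together, against 2.08 CPM (1.46 to 2.88) in normal endothelium.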

How the results depend on the processing

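The sum of the 8 genes kept its direction in tumor over normal endothelium, in cancer-like over tumor endothelium and in mitotic-like over other tumor endothelium under each alternative run. Tumor over normal endothelium, at 1.75 on the log2 scale, moved to 1.90 with a limit of 5% mitochondrial UMIs, 1.58 without removal by the filter genes, 1.51 under the stricter endothelial rule, 1.94 as a mean over cells and 1.37 without cycling cells. Cancer-like over tumor endothelium, at 2.39, moved to 2.24 with the 5% limit, 2.55 under the stricter endothelial rule, 2.59 without mitochondrial, ribosomal protein and Malat1 UMIs in the denominator and 3.02 without cycling cells, which left 18 cancer-like cells. Mitotic-like over other tumor endothelium, at 0.93, moved to 0.42 as a mean over cells and 0.37 when thinned. The share from cancer-like cells, at 70.9%, moved to 63.2% with the 5% limit, 85.7% without removal by the filter genes, 40.2% under the stricter cancer-like rule, which left 94 cells, 71.7% without the highest doublet scores and 91.6% of kept cells. Of 288 values for single genes, 226 stayed within the interval of the main value and the others left it. A change of sign was seen in 4, each in mitotic-like over other tumor endothelium. These were Mthfd1 as a mean over cells (-0.11) and, when thinned, Mthfd1l (-0.71), Mthfd2 (-0.98) and Psph (-0.56). The main interval of Mthfd2 and Psph held 0. The thinned values are from a single random draw. In another draw Mthfd2 was in 8.47% of mitotic-like and 5.56% of other cells, while Mthfd1l and Psph were again lower in mitotic-like cells. Phgdh fell from 2.74 to 1.52 in tumor over normal endothelium without removal by the filter genes. The causes were not tested. No paired analysis was possible because each group has 1 library. Depth limits Shmt1, Mthfd1l and Phgdh in normal mitotic-like cells, where 3 UMIs correspond to 5.17 CPM.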
